A study of Capra hircus with 9 samples.

Results

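AKT and mTOR are protein kinases at the centre of the pathway by which insulin and growth factors drive cell growth. The description here covers 9 genes of this pathway in the goat mammary gland, AKT1, AKT2, MTOR, RPTOR, RICTOR, TSC1, TSC2, DDIT4 and EIF4EBP1, which were taken by symbol and were all found among the 23499 genes of the table. All 9 passed the filter on low values and were among the 14701 genes tested. The libraries came from 9 healthy Laoshan dairy goats, 1 library per goat, with an average age of 4 years and a parity of 3. Of these, 3 goats were in late lactation (LL, 240 days postpartum), 3 in the dry period (DP, 300 days postpartum) and 3 in late gestation (LG, 140 days after mating). Mammary tissue was collected after slaughter, and each stage was sampled from different animals, so no animal was followed through time.

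In this pathway, phosphoinositide 3-kinase (PI3K) acts downstream of the insulin receptor and recruits AKT to the membrane, where it is activated. MTOR works in one complex with RPTOR (mTORC1), which promotes protein and lipid synthesis, and in another with RICTOR (mTORC2), which phosphorylates AKT. TSC1 and TSC2 form a complex that holds mTORC1 inactive, DDIT4 (also named REDD1) is a stress-induced inhibitor of mTORC1 upstream of TSC2, and EIF4EBP1 blocks cap-dependent translation until mTORC1 phosphorylates it. In the mammary gland the pathway is known for its part in milk protein synthesis and in epithelial growth and survival. The data are transcript levels, and phosphorylation was not measured.

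Values are FPKM, which count sequenced fragments relative to transcript length and library size, and the depth behind each value is unknown. Summed FPKM per library ran from 940676 to 1157015 in LL, but only from 601250.2 to 616268 in DP, and LG lay between at 733277 to 768157. Scaled FPKM are FPKM divided by a median-ratio factor per library, which was 0.498 to 0.605 in the LL libraries, 1.44 to 1.53 in those of DP and 1.20 to 1.31 in those of LG. In unscaled FPKM, the median log2 fold change over the tested genes was 1.09 from LL to DP, 0.93 from LL to LG and -0.18 from DP to LG, so the directions below are relative to that shift. Log2 fold changes are of scaled FPKM with a pseudocount of 1, a scale that understates the change of low genes. A gene is called where limma gave a Benjamini-Hochberg adjusted p under 0.05 over all genes tested and the log2 fold change was at least 1 in size. The spread between goats includes any technical difference between their libraries, and the tissue was analysed in bulk, so fewer cells of a type and less RNA per cell cannot be told apart. In FPKM as deposited, many genes of low level were close to 0 in LL. Of the genes tested, 897 were under 0.5 FPKM in every LL library and at 1.5 FPKM or more in every DP and LG library, compared with 8 genes low in this way in DP and 2 in LG. These limits were applied to unscaled FPKM. The shift given above by itself places more genes under such a limit in LL, so the counts of the stages cannot be compared apart from it.

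Of the 9 genes, AKT1, AKT2, DDIT4 and EIF4EBP1 were called in at least 1 comparison, and the other 5, which include MTOR, were called in none. In DP against LL, limma called 0 genes higher and 3 lower (AKT1, AKT2 and EIF4EBP1, also the 3 genes with an unadjusted p under 0.05), where 13.8% of all genes tested were called higher and 8.79% lower. In LG against LL, 1 was called higher (AKT2) and 1 lower (DDIT4), against 10.7% and 6.61% of all genes. In LG against DP, 3 were called higher (AKT1, AKT2 and EIF4EBP1) and 1 lower (DDIT4), against 6.37% and 6.88% of all genes. The comparisons share libraries, so the LG against DP result follows in part from the other comparisons. By adjusted p alone, RICTOR was also lower in LG than in DP, and no other call was gained; under that rule 28.2% of all genes were higher and 28.6% lower in DP against LL, 25.6% and 24.6% between LL and LG, and 18.4% and 16.4% between DP and LG.

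**Figure D1:**
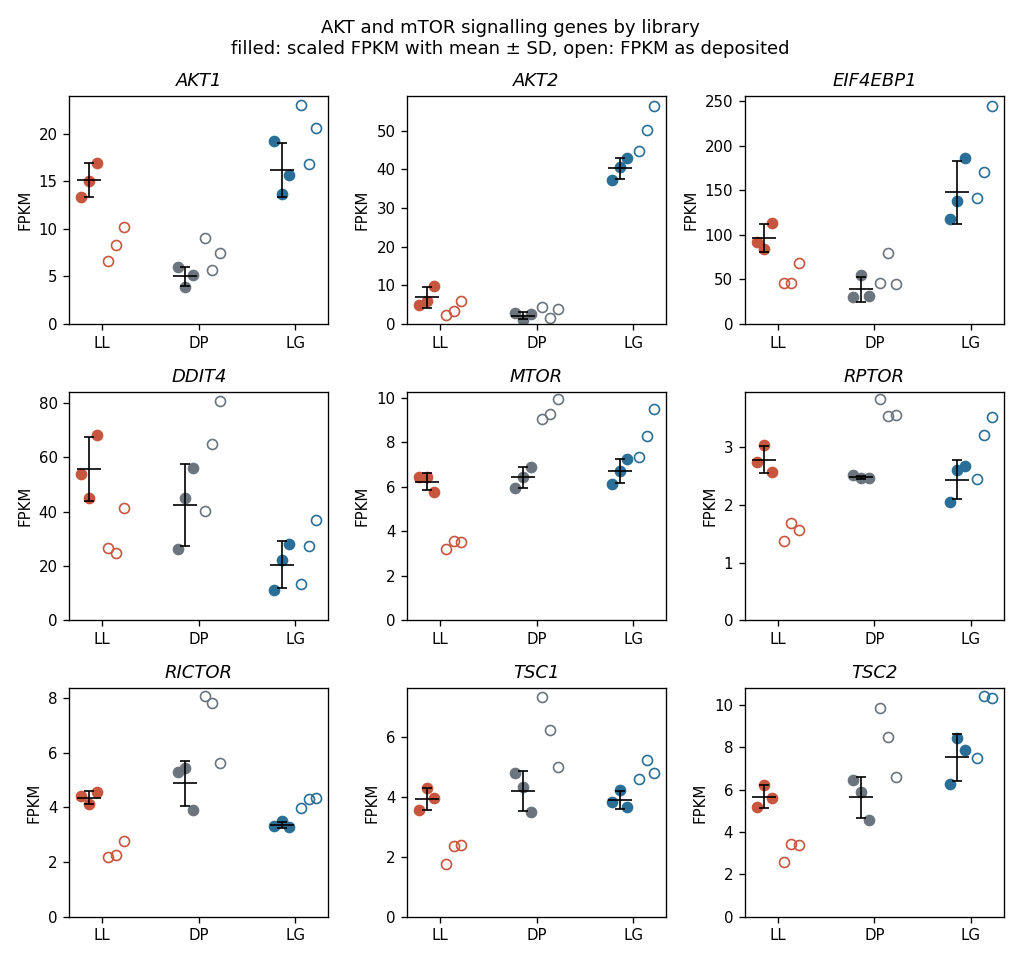
Each panel gives 1 gene by stage (x axis) in FPKM (y axis, from 0). Filled points are scaled FPKM of the 3 libraries of a stage with the mean and SD as bars, and open points are FPKM as deposited. AKT2 reached 37.4 to 42.9 scaled FPKM in LG and no more than 9.89 elsewhere, whereas MTOR stayed between 5.78 and 7.24 in all 9 libraries.

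AKT2, the AKT isoform best known for insulin-stimulated glucose uptake, was higher in LG than at the other stages. Its gene lies on chromosome 18 (50521636 to 50571119, minus strand; the table names no genome build). FPKM of AKT2 was 2.40, 3.29 and 5.99 in the LL libraries, 4.36, 1.57 and 3.80 in DP and 44.7, 50.1 and 56.3 in LG. Every LG library stood above all LL and DP libraries, and LL and DP overlapped before scaling. Mean scaled FPKM of AKT2 was 6.89 ± 2.66 (SD, n = 3) in LL, compared with 2.19 ± 0.963 in DP and, in LG, 40.3 ± 2.77. The log2 fold change was 2.44 ± 0.27 (SE; adjusted p = 0.000111) in LG against LL and 3.74 ± 0.27 (adjusted p = 3.61e-05) in LG against DP. AKT2 fell by 1.30 ± 0.27 (log2; adjusted p = 0.00314) from LL to DP after scaling, and this last difference was -0.21 and not called without scaling. AKT2 overlaps CNTD2 on the same strand, which ranged from 5.12 to 15.8 FPKM and was 10.02 to 15.8 in LG.

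AKT1, the isoform best known for growth and survival signalling, was low in DP after scaling. It lies on chromosome 21 (68634624 to 68655992, minus strand). FPKM of AKT1 was 6.66, 8.31 and 10.2 in LL and 9.08, 5.65 and 7.46 in DP, with 23.0, 16.8 and 20.6 in LG. As deposited, LG stood above the other stages, while after scaling LG overlapped LL and every DP library was lower. Mean scaled FPKM was 15.1 ± 1.77 (SD, n = 3) in the LL libraries, 5.01 ± 1.02 in those of DP and 16.2 ± 2.83 in those of LG. The log2 fold change was -1.43 ± 0.18 (SE; adjusted p = 0.000134) in DP against LL, which became -0.17 and was not called without scaling. It was 1.52 ± 0.18 (adjusted p = 0.000277) in LG against DP, and in LG against LL it was 0.09, with a 95% interval from -0.31 to 0.48 (adjusted p = 0.708), but 1.18 and called without scaling.

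AKT1 and AKT2 changed places in LG, which the ratio within a library shows without any scaling. AKT2 was 0.360, 0.396 and 0.585 of AKT1 in the LL libraries and 0.480, 0.278 and 0.509 in DP. In LG it was 1.94, 2.98 and 2.74 times AKT1. AKT1 was thus the higher isoform in all 6 LL and DP libraries and AKT2 in all 3 LG libraries. The ratio was 5.75-fold higher in LG than in LL and 6.15-fold higher in LG than in DP, without overlap (two-sided exact permutation p = 0.1 for both, the smallest that 3 against 3 libraries allow; 0.15 after adjustment over 21 ratio tests). LL and DP overlapped (exact permutation p = 0.8).

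MTOR, RPTOR and TSC1, the genes with the smallest changes among the 9, differed little between stages after scaling. MTOR, the kinase itself (chromosome 16, 40889820 to 41015393, plus strand), had 3.21, 3.57 and 3.50 FPKM in LL, compared with 9.06, 9.27 and 9.93 in DP and, in LG, 7.35, 8.30 and 9.51. Its deposited values were lowest in LL, whereas mean scaled FPKM was 6.23 ± 0.387 (SD, n = 3) in LL and 6.42 ± 0.485 in DP, with 6.70 ± 0.550 in LG, and the stages overlapped. Over MTOR, RPTOR and TSC1, the 9 log2 fold changes lay between -0.14 and 0.09, their 95% intervals between -0.39 and 0.35, and the lowest adjusted p was 0.316, so a change of the size needed for a call lay outside every one of these intervals. With RICTOR and TSC2 added, the log2 fold changes lay between -0.42 and 0.36 and their 95% intervals between -0.70 and 0.70. The lowest limma adjusted p was then 0.0268. Without scaling MTOR, RPTOR and TSC1 were higher in DP and LG than in LL. MTOR overlaps ANGPTL7 on the opposite strand, which had 0.02 to 2.71 FPKM, and the kit used did not mark strand.

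RPTOR, the scaffold of mTORC1 (chromosome 19, 51050316 to 51373104, minus strand), was the lowest of the 9 genes in LL and LG. It had 1.37, 1.68 and 1.56 FPKM in the LL libraries, 3.84, 3.55 and 3.56 in those of DP and 2.45, 3.21 and 3.52 in those of LG. After scaling, every DP library of RPTOR lay below all LL libraries, at 2.46 to 2.51 against 2.58 to 3.04 scaled FPKM. LG overlapped both. RICTOR, the scaffold of mTORC2 (chromosome 20, 35344607 to 35469110, plus strand), had 2.19, 2.27 and 2.76 FPKM in LL, compared with 8.07, 7.83 and 5.63 in DP and, in LG, 3.96, 4.30 and 4.33. After scaling, every LG library of RICTOR lay below all LL and DP libraries, whereas without scaling LG lay above LL, and the log2 fold change in LG against DP was -0.42 ± 0.12 (SE; adjusted p = 0.0268), short of the size needed for a call. The ratio of RICTOR to RPTOR was 1.35 to 1.77 in LL and 1.58 to 2.21 in DP, with 1.23 to 1.62 in LG, overlapping in every comparison (exact permutation p = 0.2 to 0.4).

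**Figure D2:**
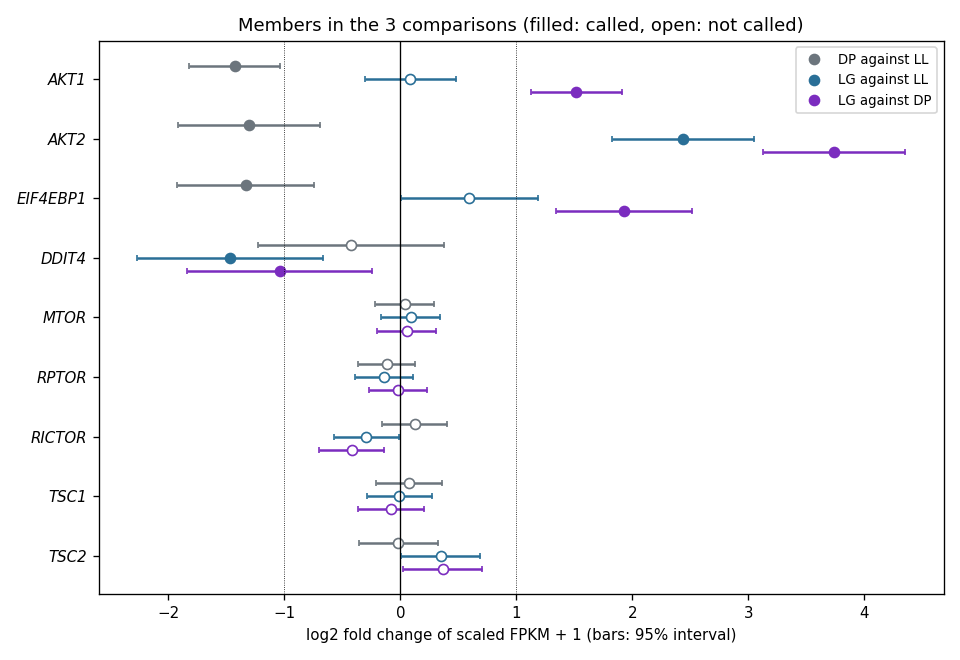
Log2 fold changes of scaled FPKM with a pseudocount of 1 (x axis) of the 9 genes (y axis) in the 3 comparisons, with 95% intervals as bars, filled where called; dotted lines mark the size of 1. AKT2 in LG against DP lies farthest from 0, at 3.74, and the points of MTOR, RPTOR and TSC1 lie between -0.14 and 0.09.

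Of the TSC brake, TSC1 and TSC2 were called in no comparison, while their ratio did not overlap between the stages. TSC1 (chromosome 11, 102371468 to 102423566, minus strand) had 1.77, 2.37 and 2.40 FPKM in the LL libraries, 7.35, 6.22 and 5.01 in those of DP and 4.58, 5.23 and 4.79 in those of LG. TSC2 (chromosome 25, 1504585 to 1535313, plus strand) had 2.57, 3.45 and 3.40 FPKM in LL, compared with 9.85, 8.47 and 6.57 in DP and, in LG, 7.51, 10.4 and 10.3. TSC2 had log2 fold changes of 0.35 ± 0.15 (SE, limma adjusted p = 0.0825) in LG against LL and 0.36 ± 0.15 (adjusted p = 0.0900) in LG against DP, and neither passed the threshold. Without scaling the first was 1.32 and called. After scaling, every LG library of TSC2 lay above all LL libraries, at 6.27 to 8.43 against 5.16 to 6.24 scaled FPKM, and DP overlapped both. Within a library, TSC1 was 0.687 to 0.706 of TSC2 in LL and 0.734 to 0.763 in DP, with 0.465 to 0.610 in LG. No library of one stage overlapped another stage, with LG lowest and DP highest (exact permutation p = 0.1 for each pair, 0.15 after adjustment). TSC2 overlaps NTHL1 on the opposite strand, which had 0.28 to 0.38 FPKM in the LL libraries, 3.31 to 5.03 in those of DP and 4.87 to 6.09 in those of LG, and its part in this ratio was not tested.

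DDIT4, the stress-induced inhibitor of mTORC1, was lowest in LG after scaling. It lies on chromosome 28 (17294230 to 17296356, minus strand). DDIT4 had 26.7, 24.9 and 41.3 FPKM in LL, compared with 40.1, 64.8 and 80.5 in DP and, in LG, 13.3, 27.3 and 37.0. Values spread widely within each stage, and after scaling every LG library lay below all LL libraries but 1 LG library lay above the lowest DP library. Mean scaled FPKM was 55.6 ± 11.7 (SD, n = 3) in LL and 42.4 ± 15.0 in DP, with 20.5 ± 8.64 in LG. DDIT4 fell by 1.47 ± 0.36 (log2, SE; adjusted p = 0.00755) from LL to LG, a difference that was -0.33 and not called without scaling. In LG against DP the log2 fold change was -1.04 ± 0.36 (adjusted p = 0.0472), and this call did not hold in 9 of 18 alternatives. In DP against LL it was -0.43 ± 0.36 (adjusted p = 0.323).

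Set against MTOR, DDIT4 was 6.96 to 11.8 times as high in the LL libraries, 4.42 to 8.11 in those of DP and 1.81 to 3.89 in those of LG, so that LG lay below both other stages in this measure without overlap (exact permutation p = 0.1, 0.15 after adjustment). The same held for the ratio of DDIT4 to TSC2, which was 0.264-fold in LG relative to LL and 0.352-fold relative to DP. LL and DP overlapped in both ratios.

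EIF4EBP1, the repressor of cap-dependent translation, had the highest FPKM of the 9 genes in LL and LG, but its values in this table are not a separate measurement. It lies on chromosome 27 (12407098 to 12430792, minus strand), 17481 bases from ASH2L, a subunit of histone methyltransferase complexes, on the same strand. EIF4EBP1 had 45.8, 46.4 and 68.9 FPKM in LL, compared with 46.1, 79.4 and 45.2 in DP and, in LG, 142, 171 and 245. ASH2L had 44.1, 44.5 and 66.8 FPKM in LL and 44.4, 77.3 and 43.1 in DP, with 139, 169 and 244 in LG. EIF4EBP1 exceeded ASH2L by 1.66 to 2.16 FPKM in every library, and a straight line left no residual above 0.159% of the range. Which of the genes the signal belongs to cannot be told apart, so the following values hold for the pair. The log2 fold change was -1.33 ± 0.26 (SE; adjusted p = 0.00227) in DP against LL, turning to 0.06 without scaling and to -0.67 with quantile normalization, where it was not called. It was 1.93 ± 0.26 (adjusted p = 0.000601) in LG against DP and 0.60 ± 0.26 (adjusted p = 0.0858) in LG against LL, the latter being 1.76 and called without scaling. Without EIF4EBP1, 2 of the other 8 genes were called lower in DP against LL and 2 higher and 1 lower in LG against DP. None of these 8 genes was linked in this way to any of its 8 next neighbours on either side.

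EIF4EBP1 was 13.0 to 19.7 times as high as MTOR in the LL libraries, 4.55 to 8.57 in those of DP and 19.3 to 25.8 in those of LG, so DP lay below both other stages, and LL and LG overlapped. Relative to EIF4E, the cap-binding protein that EIF4EBP1 holds, the ratio was lowest in DP and highest in LG without overlap (exact permutation p = 0.1, 0.15 after adjustment). EIF4E itself was called in no comparison.

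**Figure D3:**
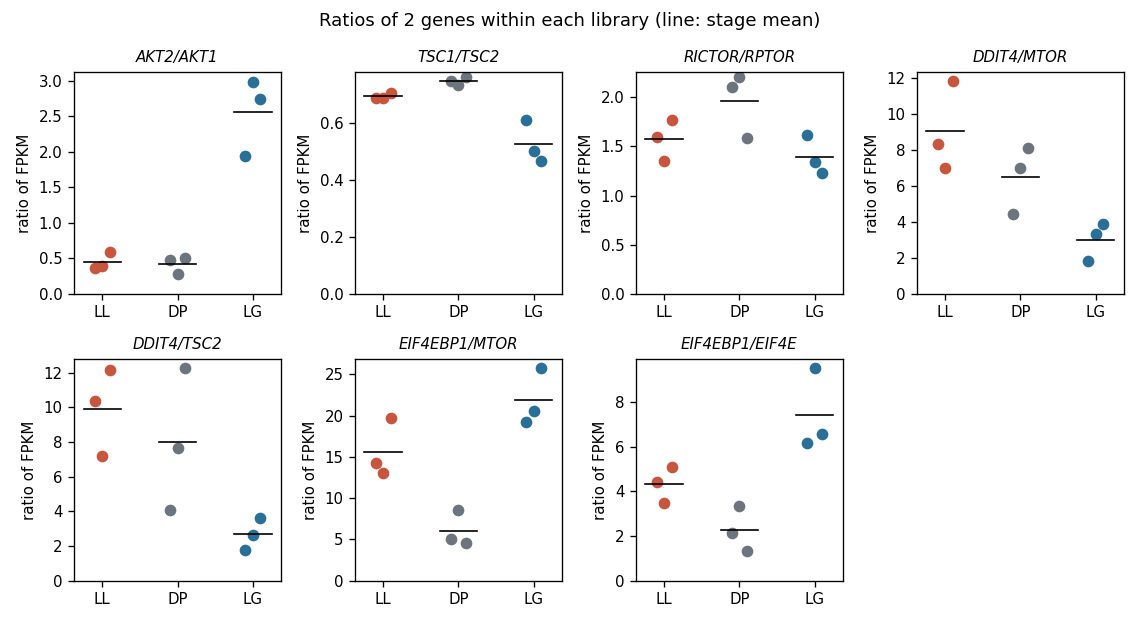
Each panel gives the ratio of FPKM of 2 genes within a library (y axis, from 0) by stage (x axis), with 1 point per library and a line at the stage mean. AKT2/AKT1 is 1.94 to 2.98 in LG and at most 0.585 in the other 6 libraries; TSC1/TSC2 and the DDIT4 ratios are lowest in LG.

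The order of the genes by FPKM changed accordingly. In LL the order was EIF4EBP1, DDIT4 and AKT1, each without overlap with the next, followed by AKT2, MTOR, TSC2, RICTOR and TSC1, whose neighbours in the order overlapped, and RPTOR. In DP, DDIT4 and EIF4EBP1 overlapped at the top, MTOR, TSC2, AKT1, RICTOR and TSC1 overlapped in the middle, and RPTOR and AKT2 overlapped at the bottom. In LG, AKT2 took the position after EIF4EBP1 and lay above DDIT4, AKT1 and all the others.

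The pathway beyond these genes was followed through 6 lists with 89 genes, of which 86 were tested. In DP against LL, 11 were called higher and 8 lower, with a median log2 fold change of -0.03 against 0.00 for all genes tested. In LG against LL, 14 were higher and 4 lower (median 0.07 against 0.02), and in LG against DP, 5 were higher and 3 lower (median 0.21 against 0.01). These counts read against the shares of all genes given above. Of the genes called higher in DP or LG against LL, 9 were among the genes of low level that were close to 0 in all LL libraries, namely PIK3R2, INPP5D, PHLPP2, DEPTOR, TELO2, TTI1, NPRL3, ULK1 and TFEB; the part of this in their calls was not tested. Without scaling, all 11 and all 14 genes called higher were again called higher, but only 3 of the 8 called lower in DP against LL and 3 of the 4 called lower in LG against LL were again called lower.

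Upstream of AKT, 3 catalytic subunits of PI3K were, like AKT2, highest in LG. PIK3CD, the delta isoform known mainly from leukocytes, had 5.44, 6.52 and 7.86 FPKM in LL, compared with 12.1, 3.42 and 4.52 in DP and, in LG, 124, 123 and 112. Every LG library stood far above the rest, with a log2 fold change of 2.91 ± 0.30 (SE; adjusted p = 7.54e-05) in LG against LL and 4.28 ± 0.30 (adjusted p = 2.97e-05) in LG against DP. In DP against LL its log2 fold change was -1.37 ± 0.30 (adjusted p = 0.00423), which was -0.14 and not called without scaling. PIK3CA, the widely expressed alpha isoform, had 5.51, 9.75 and 8.47 FPKM in LL and 10.1, 7.21 and 9.25 in DP, with 37.6, 48.3 and 36.5 in LG. Its log2 fold changes of 1.16 from LL to LG and 2.26 from DP to LG were called under every scaling, whereas -1.11 from LL to DP was called only as scaled here and was 0.16 without scaling. PIK3CB, the beta isoform, was called higher in LG against LL (1.06, but 1.00 and just short of the call with quantile normalization) and against DP (1.83).

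In all, 7 of the 18 genes from receptor to PI3K were called higher and 1 lower in LG against LL, against 10.7% and 6.61% of all genes. In LG against DP 3 were higher and 1 lower, against 6.37% and 6.88% of all genes. The gene lower in both was IRS2, an adaptor of the insulin receptor, with 1.54, 1.90 and 1.89 FPKM in the LL libraries, 8.54, 9.08 and 7.73 in those of DP and 0.84, 1.32 and 1.48 in those of LG. Its log2 fold change was -1.11 from LL to LG, which was -0.34 and not called without scaling, and -1.78 from DP to LG, called under every scaling; it was named after its values were seen. The regulatory subunits PIK3R2 (1.77) and PIK3R3 (1.55) were called higher in LG against LL, and both were under 0.5 FPKM in all LL libraries. The phosphatases PHLPP2 (1.34) and INPPL1 (1.24) were also called higher in LG against LL, under every scaling. In DP against LL, 3 were higher, namely the phosphatases INPP5D (1.82) and PHLPP2 (1.60) and PIK3R2 (1.56), and 2 were lower, PIK3CA and PIK3CD. Of all genes, 13.8% were called higher and 8.79% lower in that comparison.

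Leukocyte markers were set beside PIK3CD, and the part of leukocytes in its high values in LG was not tested. The summed scaled FPKM of 7 leukocyte markers was 28.1 to 37.5 in LL, compared with 69.8 to 111 in DP and, in LG, 24.9 to 36.4, and CD68, CD14, CSF1R and PTPRC were called lower in LG than in DP. In LG against LL, CD68 and CD14 were called lower, while the T cell marker CD3D was called higher (1.46), from 0.04 to 0.26 FPKM in LL to 1.83 to 4.18 in LG, and CD3E had a log2 fold change of 0.78 (adjusted p = 0.0833). INPP5D, a phosphatase known from blood cells, was highest in DP, where these markers were highest too, and their part in its call was not tested.

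Among 9 direct targets of AKT, which include GSK3A, GSK3B and the FOXO genes, limma called 0 in any comparison. In limma, 3, 3 and 2 had an unadjusted p under 0.05 in DP against LL, LG against LL and LG against DP. The share of all genes at that level was not computed, here or for the lists below. By adjusted p alone 1 was higher in DP against LL, 2 were higher from LL to LG and 1 was lower from DP to LG. The shares of all genes in those directions were 28.2%, 25.6% and 16.4%. Of 7 partners of the mTOR complexes, 4 were called higher in DP against LL and 3 in LG against LL, against 13.8% and 10.7% of all genes. These were DEPTOR, an inhibitory subunit (1.31 and 1.22), TELO2 (1.24 and 1.32) and TTI1 (1.09 and 1.38), which help to assemble the complexes, and in DP PRR5L (1.11), an mTORC2 partner. All 4 had 0.29 FPKM or less in every LL library. With quantile normalization the 4 calls in DP against LL were lost (DEPTOR 0.81, TELO2 0.68, TTI1 0.58 and PRR5L 0.66), as were those of DEPTOR (0.86) and TELO2 (0.87) in LG against LL. In LG against DP, 0 of the 7 were called by limma, and 5 had an unadjusted p under 0.05. By adjusted p alone 3 were higher and 1 lower, against 18.4% and 16.4% of all genes.

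In the list around TSC, RHEB and energy sensing, 14 genes were tested. SESN2, a stress-induced leucine sensor that restrains mTORC1, had 5.15, 17.0 and 7.24 FPKM in LL and 1.64, 0.85 and 1.89 in DP, with 0.86, 0.59 and 1.12 in LG. Its log2 fold change relative to LL was -3.09 ± 0.34 (SE; adjusted p = 6.82e-05) in DP and -3.32 ± 0.34 (adjusted p = 6.37e-05) in LG. Its relative SESN3 was called higher in DP against LL (1.17), and PRKAG1, a subunit of AMP-activated kinase, lower (-1.51, and -0.22 without scaling, where it was not called). In all, 1 gene was higher and 3 lower in DP against LL, against 13.8% and 8.79% of all genes. In LG against LL 0 were higher and 1 lower, against 10.7% and 6.61% of all genes. In LG against DP 0 were called, where 7 had an unadjusted p under 0.05 in limma. By adjusted p alone 3 were higher and 3 lower there, against 18.4% and 16.4% of all genes.

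Of 23 genes of amino acid sensing, 1 was called higher and 2 lower in DP against LL, against 13.8% and 8.79% of all genes. From LL to LG 1 was called higher and 1 lower, against 10.7% and 6.61% of all genes. From DP to LG 0 were called, where 9 had an unadjusted p under 0.05 in limma. By adjusted p alone 4 were higher and 2 lower there, against 18.4% and 16.4% of all genes. WDR59, a subunit of the GATOR2 complex, had 22.5, 10.2 and 18.4 FPKM in the LL libraries, 3.93, 3.45 and 2.60 in those of DP and 3.00, 4.54 and 4.10 in those of LG. Its log2 fold change was -3.23 in DP against LL and -2.90 in LG against LL. LAMTOR2, part of the lysosomal anchor of mTORC1, was lower in DP than in LL (-1.83, and -0.49 and not called without scaling), and NPRL3, a GATOR1 subunit, was higher in DP (1.05) and in LG (1.12), but 0.52 and 0.69 and not called with quantile normalization.

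**Figure D4:**
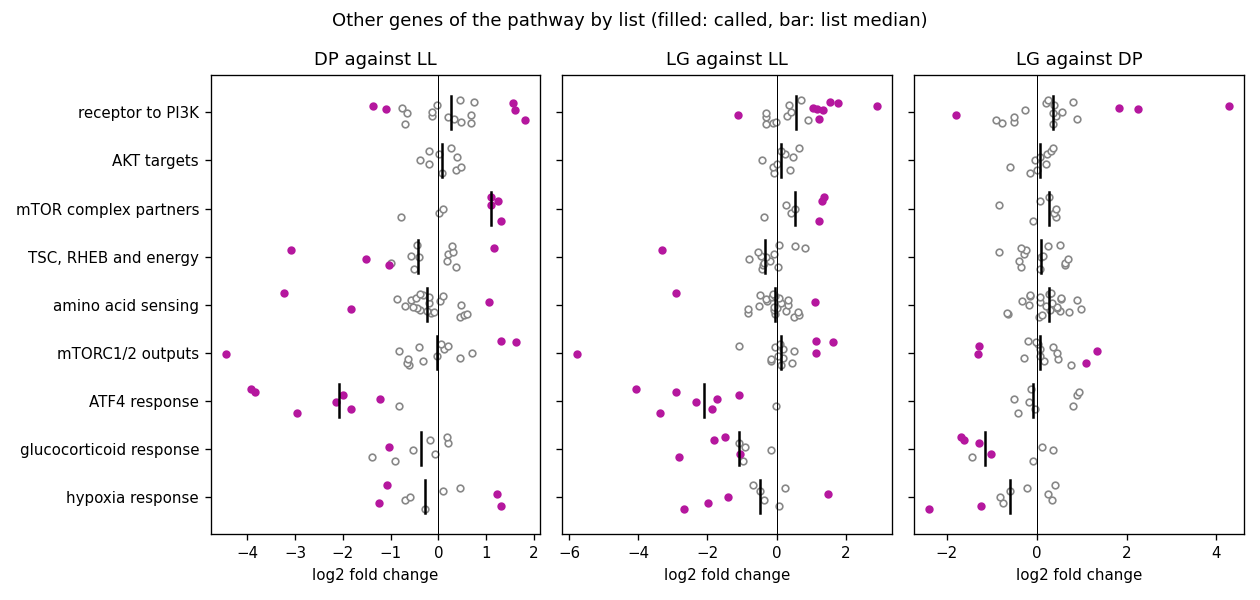
Log2 fold changes (x axis) of the tested genes of each list (y axis) in the 3 comparisons, with 1 point per gene, filled where called, and a bar at the list's median. In LG against DP the point farthest to the right is PIK3CD at 4.28; the ATF4 list has medians of -2.07 and -2.10 against LL.

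Among 15 outputs of the mTOR complexes, LPIN1, a phosphatidate phosphatase and regulator of lipid genes that mTORC1 controls, differed most. It had 45.7, 73.6 and 59.3 FPKM in LL, compared with 6.66, 7.03 and 3.89 in DP and, in LG, 0.84, 1.16 and 1.76. The log2 fold change was -4.45 ± 0.21 (SE; adjusted p = 9.10e-07) in DP against LL, -5.76 ± 0.21 (adjusted p = 4.54e-07) in LG against LL and -1.31 ± 0.21 (adjusted p = 0.00165) in LG against DP. TFEB, a transcription factor of lysosomal genes, was called higher in DP and in LG against LL (1.63 in both), as was ULK1, the kinase that starts autophagy (1.32 and 1.13), which was 0.97 and 0.83 and not called with quantile normalization. PDCD4, a translation inhibitor, was called higher in LG against LL (1.14). In LG against DP, RPS6, the ribosomal protein phosphorylated downstream of mTORC1, was higher (1.34, but 0.24 and not called with quantile normalization), with 1475 to 1736 FPKM in LG and 689 to 799 in DP, and SGK1, a kinase activated by mTORC2, was lower (-1.29).

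DDIT4 is known as a target of the stress factor ATF4, of glucocorticoids and of hypoxia, and a list of other genes of each response was followed. The counts of these lists, too, stand beside shares of all genes tested of 13.8% higher and 8.79% lower in DP against LL, 10.7% and 6.61% between LL and LG, and 6.37% and 6.88% between DP and LG. Of 8 genes of the ATF4 response, 7 were called lower in DP against LL (median -2.07) and 7 lower in LG against LL (median -2.10). In LG against DP (median -0.08) limma called 0, and 3 had an unadjusted p under 0.05. By adjusted p alone 3 were higher and 0 lower there, against 18.4% and 16.4% of all genes. Without scaling, ATF4, DDIT3 and PHGDH were not called in either comparison with LL. The genes called lower against LL include TRIB3 (-3.94 in DP and -4.05 in LG), PSAT1 (-3.85 and -2.90) and ASNS (-2.96 and -3.38). ASNS, asparagine synthetase, had 15.6, 18.9 and 16.9 FPKM in LL and 3.29, 4.95 and 5.80 in DP, with 2.17, 1.98 and 3.93 in LG. DDIT4 itself was not called in DP against LL.

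Of 8 genes of the glucocorticoid response, 1 was called lower from LL to DP, 4 from LL to LG and 4 from DP to LG, and 0 were called higher. TSC22D3, which encodes the glucocorticoid-induced leucine zipper protein, had 29.6, 50.0 and 58.1 FPKM in the LL libraries, 114, 107 and 91.5 in those of DP and 28.3, 24.8 and 31.0 in those of LG. Its log2 fold change was -1.80 ± 0.20 (SE; adjusted p = 9.62e-05) in LG against LL and -1.61 ± 0.20 (adjusted p = 0.000342) in LG against DP. Without scaling the first of these was -0.64 and not called. KLF9 was lower in LG against LL (-1.07, and 0.05 without scaling), as was FKBP5 (-2.82), although FKBP5 had 7.78, 12.9 and 75.8 FPKM in the LG libraries. In LG against DP, ZBTB16 (-1.68) and SGK1 (-1.29) were lower. The gene called in DP against LL was PER1, and its log2 fold change of -1.03 became 0.30 without scaling. Its values were linked to those of its neighbour VAMP2 in a fit with a second term. That term was the difference between EIF4EBP1 and ASH2L in each library.

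Of 9 genes of the hypoxia response tested, 2 were called higher and 2 lower in DP against LL, 1 higher and 3 lower from LL to LG and 0 higher and 2 lower from DP to LG. ADM, adrenomedullin, was lower in LG than in LL (-2.66) and in DP (-2.39), whereas NDRG1 was higher in DP (1.23) and LG (1.48) than in LL and BNIP3 lower in both (-1.24 and -1.98), although without scaling BNIP3 was called in neither and was 0.11 in DP. ANKRD37 was higher in DP than in LL (1.31, but 0.92 and not called with quantile normalization) and lower in LG than in DP (-1.24).

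**Figure D5:**
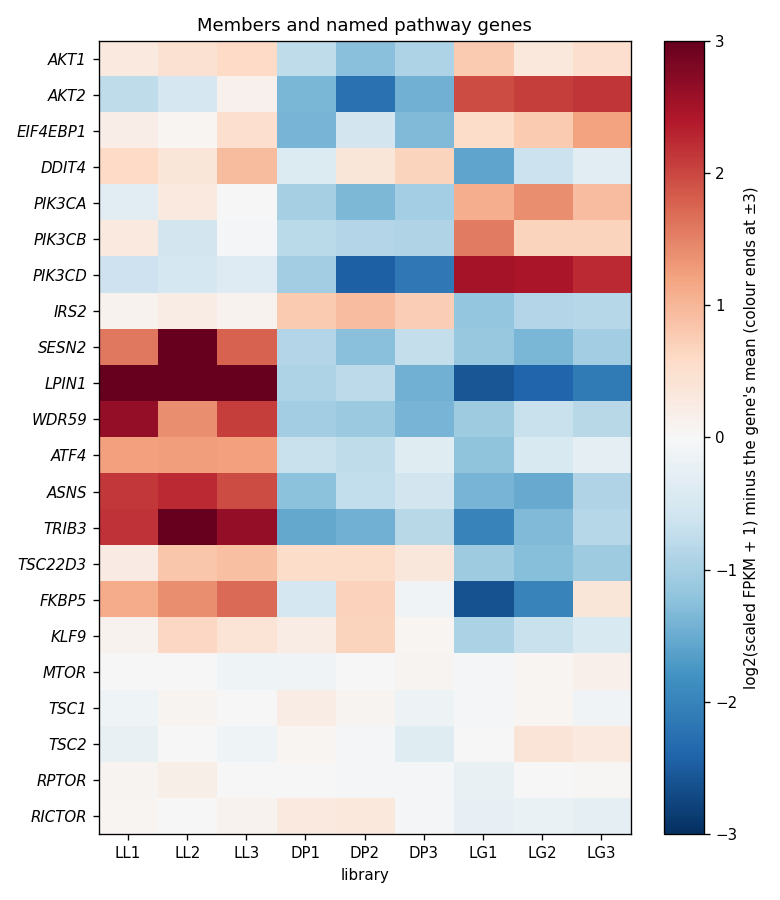
Colour gives log2 of scaled FPKM with a pseudocount of 1 minus the mean of the gene over 9 libraries, by gene (rows) and library (columns), with the colour scale ending at 3 and -3. AKT2 and PIK3CD are high in the 3 LG libraries, LPIN1, SESN2, WDR59 and TRIB3 in the 3 LL libraries, and the rows of MTOR, RPTOR and TSC1 are nearly even.

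The tissue differed in its cell markers as well. The summed scaled FPKM of 7 luminal epithelial markers was 883 to 1151 in LL, compared with 346 to 650.0 in DP and, in LG, 835 to 1000.2. The low sum in DP came from ELF5, a luminal transcription factor, which had 440 to 676 scaled FPKM in LL and 25.8 to 44.2 in DP, with 408 to 498 in LG, and was called lower in DP against LL (-4.19) and higher in LG against DP (3.82). None of the other 6 was called in any comparison. In DP against LL the log2 fold changes of KRT7, KRT18 and KRT8 were above 0 (0.86, 0.60 and 0.28), and those of 4 of the 7 markers were below 0. By adjusted p alone, 3 of the 7, ELF5 among them, were lower in DP than in LL and 0 were higher. Under that rule 28.6% of all genes were lower and 28.2% higher. Without ELF5 the sum was 406 to 475 in LL and 320 to 606 in DP, with 384 to 502 in LG, and the stages overlapped. Fibroblast markers summed to 212 to 324 in LL and 502 to 2392 in DP, with 521 to 954 in LG. Of these markers, 5 of 6 were called higher in DP against LL, against 13.8% of all genes. Myoepithelial markers summed to 164 to 224 in LL and 134 to 443 in DP, with 214 to 292 in LG, and endothelial markers to 102 to 133, 124 to 178 and 64.2 to 91.2. The myoepithelial markers KRT5 and KRT14 and the endothelial marker PECAM1 had values linked to those of a neighbour, in the fit with a second term. Adipocyte markers summed to 2.77 to 3.88 in LL and 2.66 to 21.2 in DP, with 1.27 to 1.95 in LG, and LEP was at 0 in all LL libraries. As a percentage of the luminal marker sum, AKT2 was 0.447 to 1.12 in the LL libraries, 0.168 to 0.825 in those of DP and 4.29 to 4.64 in those of LG, so LG stayed above the other stages without overlap. In this measure DDIT4 was lower in LG than at both other stages and EIF4EBP1 higher, and these held with ELF5 left out of the sum, where AKT2 was 1.19 to 2.23 in LL and 0.180 to 0.892 in DP, with 8.53 to 9.72 in LG. Other results depended on ELF5. With it, AKT1 overlapped between all stages and MTOR, RPTOR, RICTOR, TSC1 and TSC2 were higher in DP than in LL, whereas without it AKT1, AKT2 and EIF4EBP1 were lower in DP than in LL without overlap and those 5 genes overlapped between LL and DP. The part of cell composition in these differences was not tested further.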

How the data were processed

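The authors sequenced mammary gland RNA with a TruSeq kit that does not mark strand. Per the labels, FastQC, Trimmomatic, HISAT2, SAMtools and HTSeq were used, while the study's methods name StringTie and a goat reference genome; the table itself names no build. The deposited table holds 1 value per gene and library and names no unit. Its values were read as FPKM computed by the authors, since they carry decimals and their sums differ between libraries. No reads could be recovered from them, so no test on counts was run.

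Each library was scaled by a median-ratio factor, for which 15905 genes could be used, and log2 of scaled FPKM plus 1 was analysed. A gene was kept if 3 or more libraries reached 0.5 FPKM, which left 14701 genes. The R package limma (version 3.58.1, R 4.3.3) was run with a mean-variance trend on all 9 libraries without covariates, and all adjusted p-values of genes are Benjamini-Hochberg values over these genes. Ratios were compared by two-sided exact permutation tests and adjusted over 21 tests. The steps were tested on simulated data.

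The 9 genes, the lists and the ratios were chosen with earlier results of these data known. From each pathway list, up to 3 called genes per comparison with the largest log2 fold change in size and no overlap were named, and for each of the 9 genes that was called, the 3 genes most like it. Some results are not reported here, and the counts include them. CASTOR1 and CASTOR2 were listed and had no row under these symbols. Values were called linked where a straight line to one of the 8 next genes on either side kept every residual within 1% of the range. In the search over the lists, the fit to each neighbour had a second term. This term was the amount by which EIF4EBP1 exceeded ASH2L in each library, less its lowest value. That search, the percentages of luminal markers and the other scalings of the pathway genes were added after the values were seen. Pearson's r between libraries of the same stage was 0.920 to 0.980, and between libraries of different stages 0.752 to 0.868. Alternatives covered scaling, pseudocount, filter, trend, samples in the fit, a replicate block, the call rule, each library left out in turn and, added after the values were seen, EIF4EBP1 left out.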

Additional observations from a re-analysis of the deposited data

How the results depend on the processing

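The 27 log2 fold changes of the 9 genes were computed under 18 alternatives each. Of these 486 values, 441 kept their direction and side of the threshold, 13 were no longer called, 7 were newly called and 25 changed sign. The calls of AKT2 in LG against LL and of AKT1, AKT2 and EIF4EBP1 in LG against DP held in all 18. The changes of sign concern differences that were not called, except EIF4EBP1 in DP against LL. Without scaling, the log2 fold change in DP against LL became 0.88 for RPTOR, 1.16 for TSC2, 0.95 for DDIT4 and 0.058 for EIF4EBP1, that in LG against LL became 0.67 for RPTOR, 0.61 for RICTOR and 0.89 for TSC1, and MTOR in LG against DP became -0.16. Without scaling, 4 of the 9 genes were called higher and 0 lower in DP against LL, and 5 higher and 0 lower in LG against LL, while pathway genes called were 49 higher and 3 lower in DP against LL, 48 higher in LG against LL and 7 lower in LG against DP; of all genes, 8348 and 7043 were called in DP and LG against LL, in place of 3321 and 2544. With quantile normalization, TSC1 became -0.0057 and DDIT4 0.17 in DP against LL, RPTOR became 0.084 in LG against DP, and pathway genes called higher were 6 in DP against LL and 9 in LG against LL. With upper quartile scaling, TSC2 became 0.10 in DP against LL and MTOR -0.057 in LG against DP. With a pseudocount of 0.1, 3912 of all genes were called in LG against LL and 5 pathway genes lower in LG against DP. With adjusted p alone, pathway genes were 22 higher and 27 lower in DP against LL, 26 and 12 between LL and LG, 21 and 13 between DP and LG, and all genes called were 8359, 7383 and 5112, the last in place of 1948. The 1 gene called lower in LG against DP, DDIT4, was lost (0 genes) without the filter and in the fit of only those stages, and became 2 genes with adjusted p alone. With each library left out in turn it was 0 to 1; DDIT4 was lost without any 1 of the 3 LL libraries, DP libraries 2 and 3 and LG libraries 1 and 2. In DP against LL, leaving out libraries gave log2 fold changes of -0.025 to 0.087 for MTOR, -0.011 to 0.17 for TSC1 and -0.10 to 0.10 for TSC2, and -0.26 to 0.18 for the log2 ratio of AKT2 to AKT1. In LG against LL it gave -0.039 to 0.19 for AKT1 and -0.074 to 0.032 for TSC1, and in LG against DP -0.074 to 0.064 for RPTOR and -0.18 to 0.0070 for TSC1.

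Libraries with the same number deviated together with correlations of -0.106 to 0.201, so the numbers were taken as names only. With the number as a replicate block, the 9 genes again gave 0 higher and 3 lower, 1 and 1, and 3 and 1 in the order of the comparisons above, and 3340 genes of all were called in DP against LL, 2564 between LL and LG and 1986 between DP and LG.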

Other observations

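The genes whose values ran most like those of the called genes over the 9 libraries, more than 1 Mb away, were as follows; 3 stages shape each correlation, and it is given as a description. For AKT2, Pearson's r of log2 scaled values was 0.983 with PIK3CD, 0.981 with SLC5A6, a vitamin transporter, and 0.977 with PRSS8, an epithelial serine protease. For AKT1, it was 0.990 with CDKN2AIPNL. For DDIT4, it was 0.941 with FNIP2, a partner of folliculin in amino acid sensing, which was called in no comparison. For EIF4EBP1, it was 0.955 with both EMC6 and SLC27A3. The remaining genes of the rule were LOC102173518 and LOC102172606 (both 0.982) for AKT1, LOC102178109 (0.968) and LOC102179516 (0.945) for DDIT4 and LOC108634465 (0.966) for EIF4EBP1; LOC102179516 had values linked to those of its neighbour PECAM1.

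With a second fit term taken from EIF4EBP1 and ASH2L, values linked to a neighbour were found for 12 of 156 genes searched over all lists. EIF4EBP1 is among the 12, and its fit in this search was exact by construction, since the term was taken from it. The 12 also include the pathway genes PRKAB1 (with TMEM233), RRAGC (with RHBDL2), SEH1L (with CEP192), WDR24 (with JMJD8), ITFG2 (with FKBP4) and EIF4EBP3, and the markers KRT5, KRT14 and PECAM1. None of PIK3CD, PIK3CA, SESN2, WDR59 and LPIN1 was linked to any of its 8 next genes on either side.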
